A study of Mus musculus with 8 samples.

Results

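Bile acid synthesis in the liver turns cholesterol into the detergents of bile, and the genes described here encode 9 enzymes of that route, from the first hydroxylation of cholesterol to the coupling of the finished acid to an amino acid. They were chosen by gene symbol, as a list of pathway enzymes, and all 9 were among the 11784 genes of the deposited liver table. Livers came from male C57BL/6J mice that were put at 9 weeks of age on amino acid-defined food, either the Control diet (TD.140711; 4 mice, F129, F2212, F7111 and F2110) or the Low AA diet (TD.140712; 4 mice, H1126, H828, H817 and H1315), whose amino acid content is reduced. The Low AA diet also derives more of its calories from carbohydrate, so less amino acid and more carbohydrate cannot be told apart. After 4 months on the diets the mice were killed following an overnight fast of about 16 hours, and poly(A) RNA of whole liver was sequenced with a stranded protocol. All mice were fasted, so the fed state, in which bile acids return to the liver, was not sampled. Whole liver RNA was measured, in which fewer cells of a type and less RNA per cell cannot be told apart.

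In the classical pathway, Cyp7a1 starts the conversion by hydroxylating the sterol ring, and Cyp8b1 adds the hydroxyl group that directs the product towards cholic acid. In the alternative pathway, the mitochondrial enzyme Cyp27a1 starts at the side chain, and the same enzyme oxidises the side chain of classical intermediates. Hsd3b7 and Akr1d1 modify the rings, Amacr flips a methyl group of the side chain so that peroxisomes can shorten it, Slc27a5 activates the acid with coenzyme A, and Baat joins it to taurine or glycine. Cyp2c70 makes muricholic acids, which are prominent in mouse bile. Bile acids returning from the gut act through the receptor FXR, which raises the repressor SHP in the liver and the hormone FGF15 in the intestine, and both lower Cyp7a1.

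The values are scaled read counts. In each mouse the authors' counts had been multiplied by a factor, fitted here at 0.902 to 1.11 from the trace that scaling and rounding leave among low numbers, and they summed to between 27876664 and 30799385 per mouse, which corresponds to an estimated 26900000 to 31500000 reads. Diets were compared with limma over all 11784 genes, after taking log2 of each value plus 1, and a gene was called at a Benjamini-Hochberg adjusted p under 0.05. All 10 hepatocyte markers examined were in the table, with Alb the highest. Control mouse F2212 stood apart from the other 7 in acute-phase transcripts, with a scaled read count of 57733 for Saa1 against 68 to 2818, and in the pancreatic gene Cela1, with 36587 against 130 to 288, so values without it are given where they bear on a result.

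Sequences upstream of the transcription start are shown for 3 of the enzymes, Cyp27a1 because it is the enzyme whose values separated the diets, and Cyp8b1 and Cyp2c70 because they add the hydroxyl groups that lead to cholic acid and to muricholic acids. RefSeq windows on GRCm38.p6 were found for 5 of the 9 genes, Cyp8b1, Cyp27a1, Hsd3b7, Akr1d1 and Cyp2c70. Each line holds the 250 bases before the start, 5′ to 3′ on the strand of the gene, and capitals mark matches on either strand to CAAAGTCCA (HNF4A), CAAGGNCA (NR5A2, also called LRH-1), AGGTCA (one arm of a nuclear receptor site), CCAAT (bound by NF-Y), the TATA box TATAAA or TTATGTAA (DBP and its relatives). The windows lie at chr1:74713285-74713534 on the plus strand, at chr9:121916306-121916555 on the minus strand and at chr19:40187287-40187536 on the minus strand. The starts are those of RefSeq, whereas the gene positions given below come from GENCODE. The Cyp2c70 window reaches into the GENCODE gene, and the Cyp27a1 window ends short of its GENCODE start. Distances are therefore to the RefSeq start only.
Cyp27a1: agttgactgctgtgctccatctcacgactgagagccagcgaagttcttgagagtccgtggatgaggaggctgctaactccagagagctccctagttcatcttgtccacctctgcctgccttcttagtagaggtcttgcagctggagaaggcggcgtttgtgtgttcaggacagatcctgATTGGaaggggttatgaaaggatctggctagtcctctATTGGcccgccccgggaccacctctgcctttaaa
Cyp8b1: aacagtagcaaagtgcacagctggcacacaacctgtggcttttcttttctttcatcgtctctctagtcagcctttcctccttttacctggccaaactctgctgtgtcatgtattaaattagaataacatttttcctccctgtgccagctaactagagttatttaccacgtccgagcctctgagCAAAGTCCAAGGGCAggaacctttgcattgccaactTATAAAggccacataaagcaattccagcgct
Cyp2c70: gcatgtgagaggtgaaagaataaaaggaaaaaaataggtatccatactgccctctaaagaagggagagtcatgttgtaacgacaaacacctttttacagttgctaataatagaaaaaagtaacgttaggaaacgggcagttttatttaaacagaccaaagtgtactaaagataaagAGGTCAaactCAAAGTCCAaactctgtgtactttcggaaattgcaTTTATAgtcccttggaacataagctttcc
Cyp8b1 held CAAAGTCCA from 67 to 59 bases before its start, overlapping a match to CAAGGNCA at 60 to 53, and Cyp2c70 held CAAAGTCCA at 64 to 56, beside an AGGTCA at 74 to 69. Of 32851 RefSeq windows of this length, 0.384% held CAAAGTCCA and 5.53% held CAAGGNCA. The shares were 14.0% for AGGTCA, 33.8% for the CCAAT pattern, 12.4% for the TATA box and 0.819% for the DBP pattern. Cyp27a1 held 2 matches to CCAAT on the reverse strand and none to the other 5 patterns. Akr1d1 held 2 matches to AGGTCA, and Hsd3b7 held none of the 6. A match of letters is not a measurement of binding.

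Of the 9 enzymes, 0 were called, against 0.399% of all genes tested (47 of 11784, limma with Benjamini-Hochberg adjustment). At an unadjusted p under 0.05 there was 1 of 9, Cyp27a1, against 11.8% of all genes, and 1 of 9, again Cyp27a1, had values that did not overlap between the diets, against 6.81% of all genes in either direction of which 3.55% were lower and 3.26% higher in Low AA mice. Log2 fold changes were negative for 6 enzymes and positive for 3, with a median of -0.16, beside 0.00234 over all genes. For a list of 9 genes, counts of 0 and 1 are near those backgrounds.

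**Figure D1:**
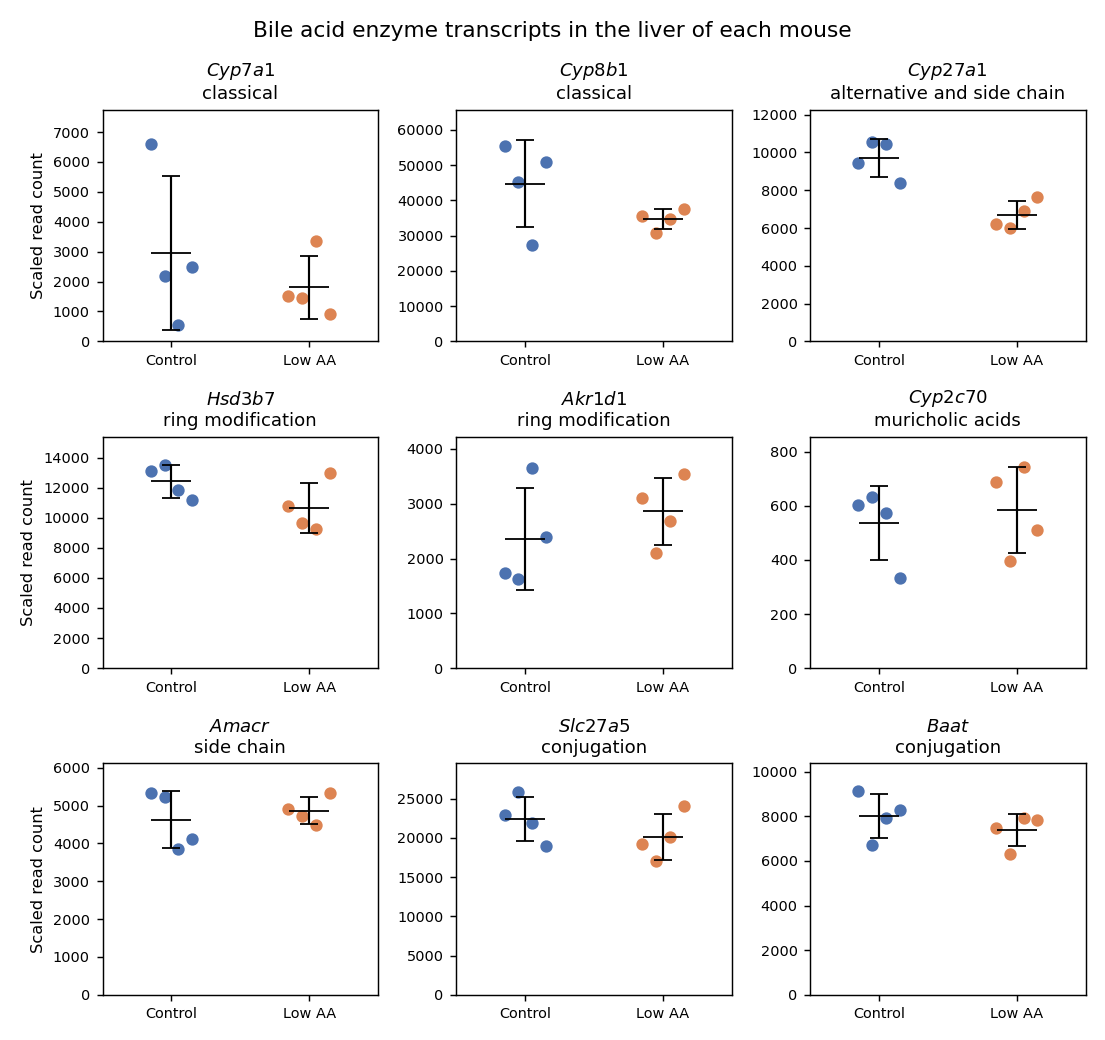
Scaled read counts of the 9 enzyme transcripts in each mouse (points; y axes start at 0 and differ between panels), with the mean and SD of the 4 mice per diet (bars). The 4 Low AA values of Cyp27a1, 5983 to 7618, lie below the 4 Control values, 8404 to 10532, and the diets overlap for the other 8 enzymes.

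Cyp27a1 lies on chromosome 1 from 74713574 to 74737892 (GRCm38, plus strand, 9 exons). Its scaled read counts were 6232, 5983, 6926 and 7618 in Low AA mice H1126, H828, H817 and H1315, and 9431, 10532, 10443 and 8404 in Control mice F129, F2212, F7111 and F2110. Every Low AA mouse was below every Control mouse. Low AA mice averaged 6690 ± 736 and Control mice 9703 ± 999 (SD, n = 4 each), a fold of 0.689, or 31.1% lower by the fit, with a 95% confidence interval from 0.578 to 0.821. The log2 fold change of -0.54 (standard error 0.11) had an unadjusted limma p of 0.000768, the 105th smallest of 11784, and an adjusted p of 0.0847, so the call was missed. Its spread between mice of one diet was small, with a pooled SD of 0.15 on the log2 scale that exceeded that of 26.3% of genes. With each mouse left out in turn the log2 fold change stayed between -0.60 and -0.49, with limma adjusted p from 0.0746 to 0.265, and without Control mouse F2212 it was -0.50 (limma adjusted p = 0.116). Macrophages also express Cyp27a1. Of the 10 Kupffer cell and macrophage markers examined, 9 were listed, all 9 had positive log2 fold changes, 0 were called and 0 were without overlap, and their summed level ran from 9609 to 13585 in Low AA mice and from 8866 to 13670 in Control mice. The macrophage marker Adgre1 was not listed.

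Cyp7a1, the rate-limiting enzyme of the classical pathway, lies on chromosome 4 from 6265612 to 6275633 (minus strand, 6 exons). Its scaled read counts were 1531, 1449, 3343 and 921 in Low AA mice H1126, H828, H817 and H1315, and 6601, 2195, 553 and 2480 in Control mice F129, F2212, F7111 and F2110. Both the highest and the lowest value were in Control mice, 11.9-fold apart, and all 4 Low AA values lay between them. The log2 fold change of -0.39 (standard error 0.64) had a 95% confidence interval from -1.80 to 1.03, that is from a fold of 0.287 to one of 2.05 (limma adjusted p = 0.873). A rise or a fall of 2-fold in Cyp7a1 both lie within that interval. The value was 0.16 without Control mouse F129 and -1.03 without Control mouse F7111.

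Cyp8b1, on chromosome 9 from 121914356 to 121916305 (minus strand, 1 exon), had scaled read counts of 35637, 30848, 34826 and 37522 in Low AA mice H1126, H828, H817 and H1315. The Control mice F129, F2212, F7111 and F2110 had 55457, 45329, 27210 and 50919. Of the Control mice, 3 were above all Low AA mice and F7111 was below them all, the mouse that also had the least Cyp7a1. The log2 fold change was -0.32 (standard error 0.20; 95% confidence interval -0.77 to 0.13; limma adjusted p = 0.603). Without F7111 it was -0.54 (limma adjusted p = 0.118). The diets then did not overlap, which follows from omitting the only Control mouse that was not above the Low AA mice. Within the diets, the coefficient of variation of Cyp8b1 was 8.10% in Low AA mice and 27.7% in Control mice, a difference in spread that was not tested.

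The ring-modifying enzymes had log2 fold changes of opposite sign, and neither passed the test. Hsd3b7, on chromosome 7 from 127800604 to 127803802, is the dehydrogenase that follows hydroxylation in both pathways. It had scaled read counts of 10765, 9624, 9241 and 12995 in Low AA mice H1126, H828, H817 and H1315, and 13121, 13519, 11834 and 11198 in Control mice F129, F2212, F7111 and F2110. Low AA mouse H1315 lay among the Control mice, and the other 3 Low AA mice were below all of them. The log2 fold change was -0.23 (standard error 0.13; 95% confidence interval -0.51 to 0.05; limma adjusted p = 0.526). Akr1d1, the reductase that bends the ring system into the bile acid shape, lies on chromosome 6 from 37530173 to 37568815. Its scaled read counts were 3108, 2098, 2690 and 3544 in Low AA mice H1126, H828, H817 and H1315, and 1739, 1623, 3659 and 2393 in Control mice F129, F2212, F7111 and F2110. The highest value was in a Control mouse, F7111, as were the lowest 2, and the log2 fold change was 0.33 (standard error 0.25; 95% confidence interval -0.22 to 0.89; limma adjusted p = 0.682). Without F2212, the lowest mouse for Akr1d1, it was 0.18 (limma adjusted p = 0.837). Both genes overlap other annotated loci in GENCODE M21, including one on the opposite strand for Hsd3b7. Whether strand was used in counting is not given in the sources used here.

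Amacr, the racemase of the side chain, lies on chromosome 15 from 10981756 to 10996626. Scaled read counts of Amacr were 4919, 4723, 4487 and 5324 in Low AA mice H1126, H828, H817 and H1315, and 5318, 5232, 3861 and 4107 in Control mice F129, F2212, F7111 and F2110. Control mice F7111 and F2110 were below all Low AA mice, and F129 and F2212 lay among them. The log2 fold change of Amacr was 0.08 (95% confidence interval -0.19 to 0.36, limma adjusted p = 0.857). Cyp2c70, on chromosome 19 from 40153353 to 40187333, had scaled read counts of 687, 395, 742 and 512 in Low AA mice H1126, H828, H817 and H1315, and 604, 634, 574 and 335 in Control mice F129, F2212, F7111 and F2110. Low AA mouse H828 and Control mouse F2110 were the lowest, and the log2 fold change was 0.12 (95% confidence interval -0.42 to 0.66; limma adjusted p = 0.898). Cyp2c70 belongs to a multigene family, and how reads shared with its relatives were assigned is not known.

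The enzymes of conjugation overlapped between the diets. Slc27a5, the bile acid coenzyme A ligase, lies on chromosome 7 from 12988346 to 12998192. Scaled read counts of Slc27a5 were 19164, 17008, 20139 and 24123 in Low AA mice H1126, H828, H817 and H1315, and 22898, 25897, 21860 and 18985 in Control mice F129, F2212, F7111 and F2110. Its log2 fold change was -0.16 (standard error 0.13; 95% confidence interval -0.46 to 0.14; limma adjusted p = 0.723). Without F2212, the highest mouse for Slc27a5, it was -0.09 (limma adjusted p = 0.861). Baat, the transferase that adds taurine or glycine, lies on chromosome 4 from 49489422 to 49506557. Scaled read counts of Baat were 7457, 6331, 7909 and 7850 in Low AA mice H1126, H828, H817 and H1315, and 9124, 6702, 7943 and 8293 in Control mice F129, F2212, F7111 and F2110. The log2 fold change of Baat was -0.11 (standard error 0.12; 95% confidence interval -0.38 to 0.15; limma adjusted p = 0.78), so a fall by more than a fold of 0.768 or a rise above 1.11 lies outside the interval. Without F2212, the lowest Control mouse for Baat, the other 3 Control mice were above all Low AA mice (log2 fold change -0.20, limma adjusted p = 0.517). That separation follows from omitting the only Control mouse that was not above all Low AA mice.

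**Figure D2:**
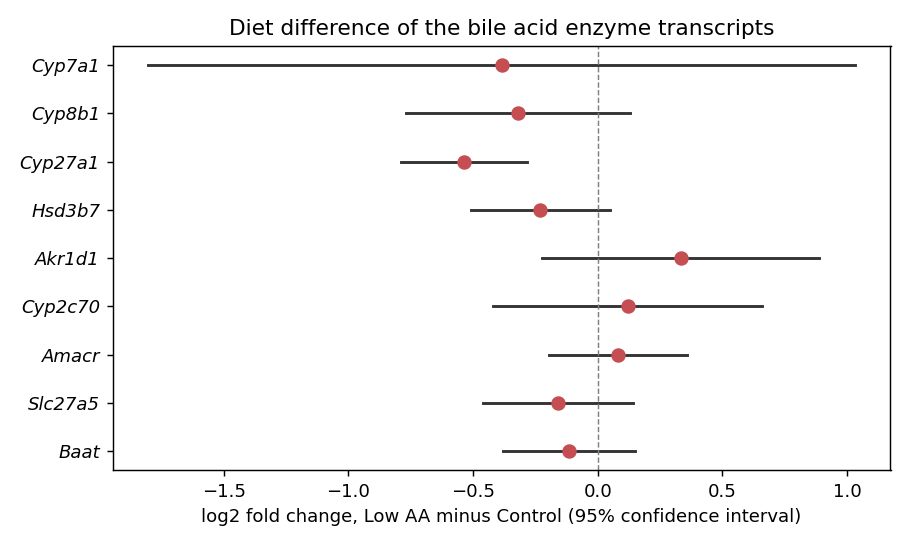
Log2 fold change of each enzyme transcript, Low AA minus Control (points), with its 95% confidence interval from limma (lines) and 0 marked by the dashed line. The interval of Cyp27a1, -0.79 to -0.28, lies below 0 before adjustment for the 11784 genes tested, that of Cyp7a1 is the widest, and the other 8 intervals include 0.

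The enzymes differed in how much mice on the same diet varied. The pooled SD between mice of one diet on the log2 scale was 1.17 for Cyp7a1, above that of 99.6% of all genes, 0.44 for Akr1d1 (90.6%), 0.42 for Cyp2c70 (89.2%) and 0.34 for Cyp8b1 (79.8%). It was between 0.15 and 0.20 for Cyp27a1, Baat, Hsd3b7, Amacr and Slc27a5, which stood between 26.3% and 43.4% of all genes. The first enzyme of the classical pathway was thus the most variable of the 9 between mice of one diet. Its coefficient of variation was 87.0% in Control mice and 58.3% in Low AA mice. Cyp27a1, the first enzyme of the alternative pathway, was among the enzymes with the smaller SDs, which lay close together and whose order was not tested. Low-level genes had larger SDs across the table, so a share over all genes is not a comparison with genes of like level.

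**Figure D3:**
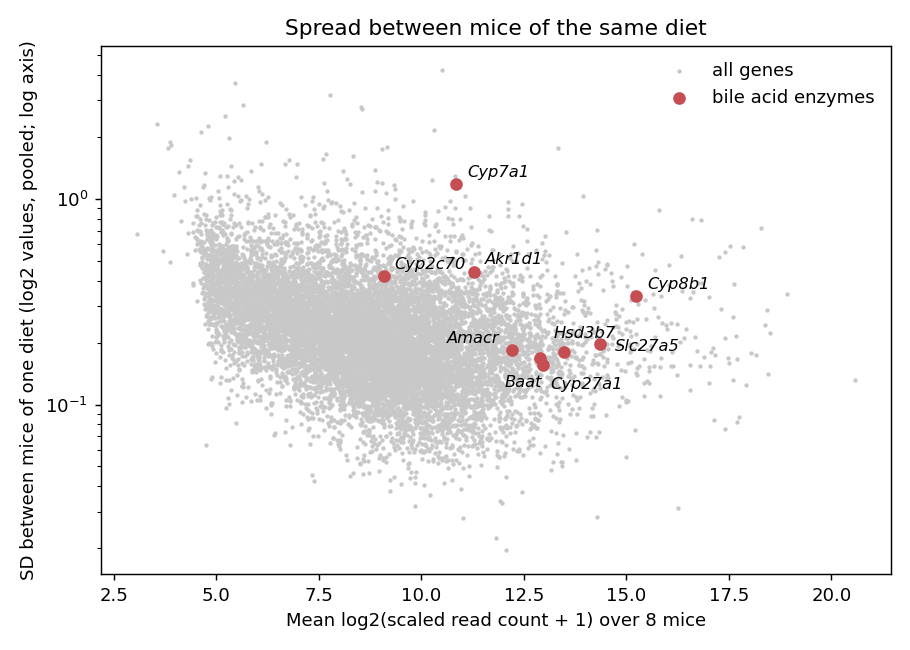
Pooled SD between mice of the same diet on the log2 scale (y, log axis) against the mean level over 8 mice (x) for all 11784 genes (grey) and the 9 enzymes (red). Cyp7a1, at 1.17, stands among the highest of all genes, and Cyp27a1, Baat, Amacr, Hsd3b7 and Slc27a5 lie between 0.15 and 0.20.

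Levels per kilobase of the longest coding transcript ran over a 54.7-fold range between enzymes. Cyp8b1 was highest with a median over the 8 mice of 18759 scaled reads per kilobase, followed by Slc27a5 (9178), Hsd3b7 (6300), Cyp27a1 (4234), Baat (4060), Amacr (1871), Akr1d1 (942), Cyp7a1 (447) and Cyp2c70 (343). The ranges over mice did not overlap between Cyp8b1 and Slc27a5, Slc27a5 and Hsd3b7, Baat and Amacr, or Amacr and Akr1d1. They overlapped between Hsd3b7 and Cyp27a1, but within each mouse Hsd3b7 was the higher in 8 of 8. Among the other overlapping neighbours, Akr1d1 was above Cyp7a1 in 7 of 8 mice, F129 being the exception, Cyp7a1 was above Cyp2c70 in 5 of 8, and Cyp27a1 was above Baat in 4 of 8, the 4 Control mice. In scaled reads per kilobase, Control mice averaged 5128 ± 528 for Cyp27a1 and 4130 ± 518 for Baat (SD, n = 4 each). Low AA mice averaged 3536 ± 389 for Cyp27a1 and 3806 ± 377 for Baat (SD, n = 4 each), so the order of these means was the other way round.

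Whether the balance of the pathways differed was asked with 6 ratios taken within each mouse, which do not depend on how a mouse's column was scaled. The log2 ratio of Cyp7a1 to Cyp27a1, the entries of the classical and the alternative pathway, was -2.02, -2.05, -1.05 and -3.05 in Low AA mice H1126, H828, H817 and H1315, and -0.51, -2.26, -4.24 and -1.76 in Control mice F129, F2212, F7111 and F2110. The Control mice enclosed the Low AA mice, and the means differed by 0.15 (exact permutation test, two-sided, p = 0.943, adjusted p = 0.943 over 6 ratios). The log2 ratio of Cyp8b1 to Cyp27a1 averaged 2.38 ± 0.10 in Low AA mice against 2.16 ± 0.57 in Control mice (SD, n = 4 each; exact permutation test, two-sided, p = 0.657). That of Cyp8b1 to Cyp7a1 was 4.42 ± 0.81 and 4.35 ± 1.04 (SD, n = 4 each; exact permutation test, two-sided, p = 0.829), and that of Cyp8b1 to Cyp2c70 was 5.93 ± 0.36 and 6.37 ± 0.70 (SD, n = 4 each; exact permutation test, two-sided, p = 0.343). The log2 ratio of Baat to Slc27a5 differed by 0.04 between diets and that of Cyp7a1 to Baat by -0.27 (exact permutation test, two-sided, p = 0.829 and 0.743). Without F2212 the difference for Baat to Slc27a5 changed sign, to -0.11 (exact permutation test, two-sided, p = 0.4). All 6 adjusted p were 0.943. The smallest p that 4 mice against 4 allow is 0.0286, and none of the 6 ratios came near it.

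**Figure D4:**
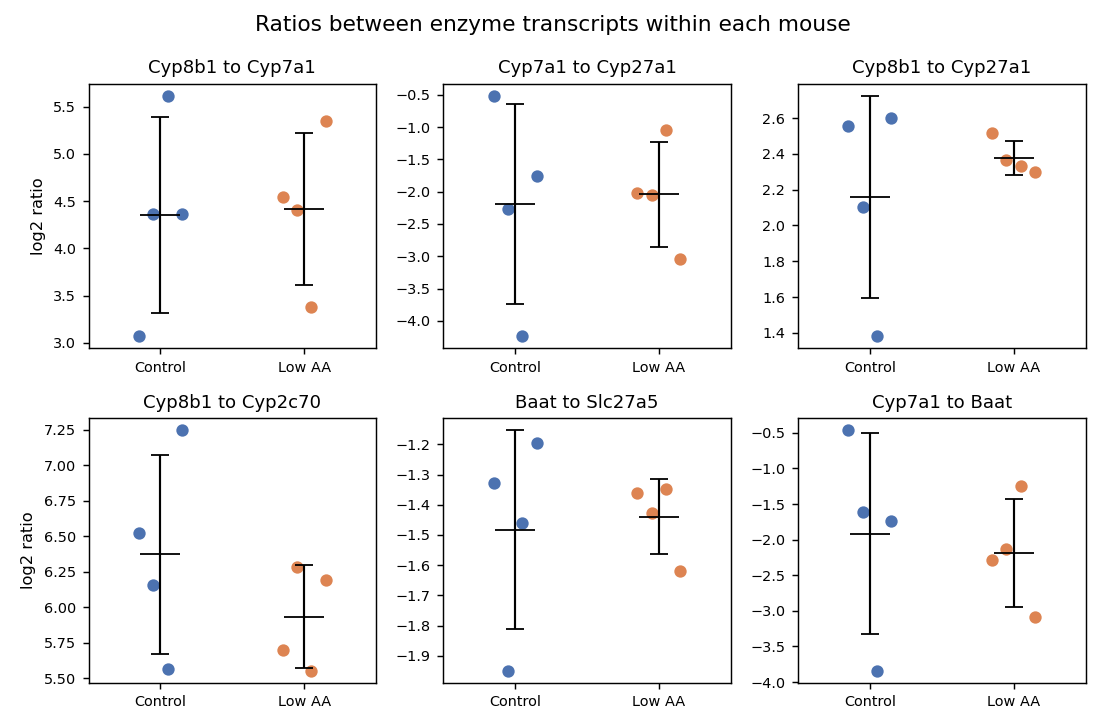
Log2 ratios between pairs of enzyme transcripts within each mouse (points), with the mean and SD of the 4 mice per diet (bars); the y axes do not start at 0. The diets overlap in all 6 ratios, and Control mice F129 and F7111 form the extremes of the ratio of Cyp7a1 to Cyp27a1, at -0.51 and -4.24.

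All 36 pairs of enzymes were compared over the 8 mice. Between Cyp7a1 and Cyp8b1, Pearson's r was 0.77 (exact permutation p = 0.0244, adjusted p = 0.305 over 36 pairs) and Spearman's rho 0.67 (exact permutation p = 0.0831, adjusted p = 0.68). Without F129 and F7111, the mice farthest from the median of Cyp7a1, r was 0.33. Leaving out the extremes of Cyp7a1 also narrows its range, so this drop cannot show whether the relation rests on those mice. Between Cyp7a1 and Akr1d1, r was -0.73 (exact permutation p = 0.0408, adjusted p = 0.305) and rho -0.64 (exact permutation p = 0.0962, adjusted p = 0.68), and r was -0.44 without the same mice. Hsd3b7 and Slc27a5 had r = 0.85 (exact permutation p = 0.0099, adjusted p = 0.305) and rho = 0.81 (exact permutation p = 0.0218, adjusted p = 0.392), with r = 0.95 without H817 and H828. Cyp27a1 and Hsd3b7 had r = 0.75 (exact permutation p = 0.0406, adjusted p = 0.305) and rho = 0.81 (exact permutation p = 0.0218, adjusted p = 0.392), with r = 0.56 without H828 and F2212. Cyp27a1 and Slc27a5 had r = 0.74 (exact permutation p = 0.0423, adjusted p = 0.305) and rho = 0.71 (exact permutation p = 0.0576, adjusted p = 0.68), with r = 0.44 without the same mice. These 5 were the pairs with an unadjusted Pearson p under 0.05. After subtracting the mean of each diet, r was 0.79 for Cyp7a1 and Cyp8b1, -0.72 for Cyp7a1 and Akr1d1, 0.82 for Hsd3b7 and Slc27a5, 0.60 for Cyp27a1 and Hsd3b7, and 0.89 for Cyp27a1 and Slc27a5. The diets differed in sign for Cyp7a1 and Cyp8b1, with r = 0.95 in the 4 Control mice and -0.22 in the 4 Low AA mice. Such a change of sign was not particular to this pair. For Cyp8b1 and Akr1d1, r was -0.83 in Control mice and 0.98 in Low AA mice. These differences were not tested. For no pair did the adjusted p pass 0.05. In the whole table, the genes with the pattern most like that of Cyp7a1 over the 8 mice were Sox7, Cdc42ep3 and Zfp53 (r = 0.98, 0.96 and 0.96), all low in level, with scaled read counts of 30 to 49 for Sox7. Those most like Cyp8b1 were Psmb9, Gsto1 and Mgst1 (r = 0.97, 0.97 and 0.96). For both enzymes these were picked as the highest r of the whole table over only 8 mice, where unrelated genes can reach such values. They are a description and were not tested.

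Other enzymes of synthesis and breakdown, those of the side chain, of oxysterols and of bile acid modification, were examined as a list of 21, of which 18 were in the table. Of these 18, 1 was called higher and 0 lower, against 0.399% of all genes called, with a median log2 fold change of 0.04. The called gene was Cyp3a11, which hydroxylates bile acids and many drugs. Its scaled read counts were 94699, 64543, 68828 and 94939 in Low AA mice H1126, H828, H817 and H1315 and 25318, 29299, 38441 and 45765 in Control mice F129, F2212, F7111 and F2110, with no overlap. Its log2 fold change was 1.23 (standard error 0.21, limma adjusted p = 0.0395), and with single mice omitted its limma adjusted p ran from 0.0271 to 0.106, passing 0.05 in 1 of 8 fits. Without F2212 it was 0.0599. Cyp3a11 belongs to a multigene family, and how reads shared with its relatives were assigned is not known.

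Cyp39a1 and Cyp7b1 hydroxylate oxysterols at the ring, the step that follows side-chain hydroxylation on the alternative route. Cyp39a1 had scaled read counts of 1730, 2903, 2608 and 2174 in Low AA mice H1126, H828, H817 and H1315, and 1194, 660, 1339 and 1325 in Control mice F129, F2212, F7111 and F2110. Every Low AA mouse was above every Control mouse, and the fold of 2.12 (log2 fold change 1.09, standard error 0.24) missed the call with a limma adjusted p of 0.0897. Without F2212, its lowest mouse, the log2 fold change of Cyp39a1 was 0.85 (limma adjusted p = 0.0635). Cyp7b1 had scaled read counts of 1588, 5377, 3357 and 3862 in Low AA mice H1126, H828, H817 and H1315, and 14003, 3127, 8580 and 3721 in Control mice F129, F2212, F7111 and F2110. The diets overlapped, since 2 Control mice were above all Low AA mice and the other 2 lay among them (log2 fold change -0.91, standard error 0.49, limma adjusted p = 0.52). Of the 18 genes, 4 did not overlap between diets, Cyp3a11, Cyp39a1 and Abcd3 higher and Ephx1 lower, against 6.81% of all genes (3.26% higher and 3.55% lower). Abcd3, a peroxisomal transporter of bile acid intermediates, and Ephx1, named after their values were seen, had log2 fold changes of 0.35 and -0.66 (limma adjusted p = 0.197 and 0.0653).

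**Figure D5:**
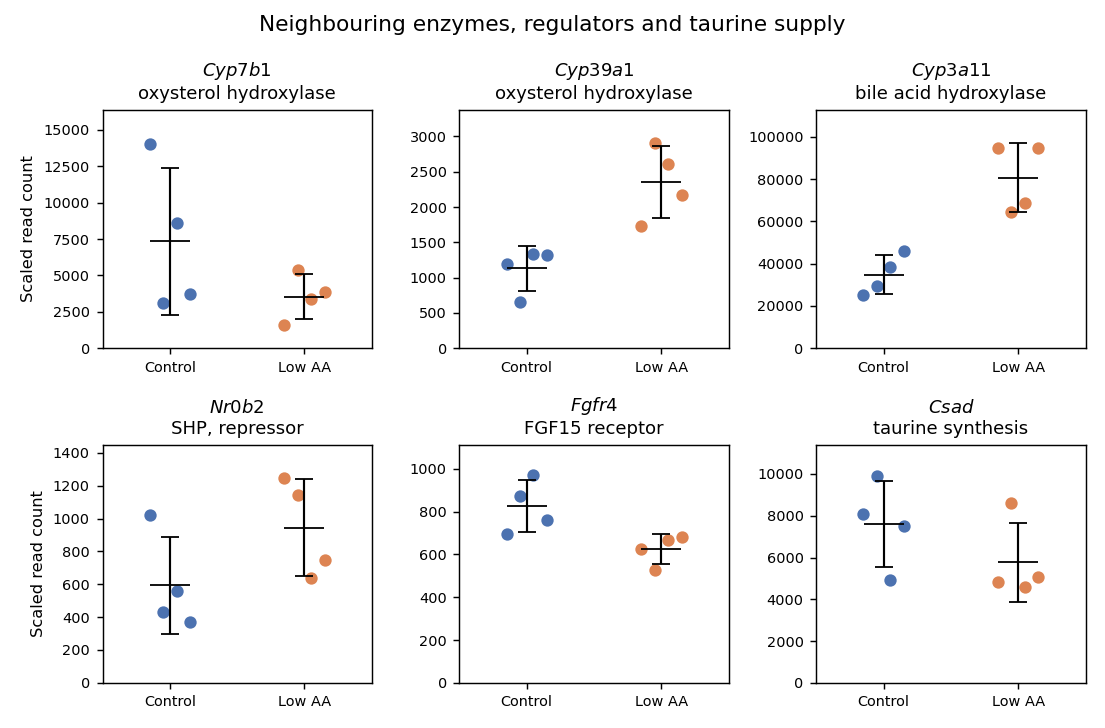
Scaled read counts in each mouse (points; y axes start at 0 and differ between panels), with the mean and SD of the 4 mice per diet (bars), for oxysterol and bile acid hydroxylases, the repressor SHP (Nr0b2), the FGF15 receptor Fgfr4 and the taurine-making enzyme Csad. Cyp39a1 and Cyp3a11 were higher in all 4 Low AA mice than in all 4 Control mice, Fgfr4 was lower in all 4, and the other 3 overlap.

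Because Baat uses taurine and glycine, which derive from amino acids, 10 genes of their supply were examined, and all 10 were in the table. None was called, 0 were without overlap, and the median log2 fold change was 0.01, with 5 positive and 5 negative. The 3 with the largest differences were the glycine transporter Slc6a9 (log2 fold change -0.61, limma adjusted p = 0.322), Csad, which makes hypotaurine (-0.40, limma adjusted p = 0.578), and the mitochondrial serine hydroxymethyltransferase Shmt2 (-0.24, limma adjusted p = 0.409). Csad was at 4831, 8601, 4610 and 5078 scaled read counts in Low AA mice H1126, H828, H817 and H1315 and at 8100, 9881, 4918 and 7521 in Control mice F129, F2212, F7111 and F2110. Apart from H828, the Low AA mice were near the lowest Control mouse, F7111. Cdo1, which starts taurine synthesis from cysteine, was named after its values were seen and ran from 44331 to 57797 in Low AA mice and from 42264 to 49474 in Control mice.

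Of 20 regulators of these enzymes 18 were listed, and 0 were called, with a median log2 fold change of 0.13. The log2 fold change was 0.73 for Nr0b2, which encodes SHP (limma adjusted p = 0.405). Ppargc1a, a coactivator induced by fasting, was at 0.51 (limma adjusted p = 0.751), and Fgfr4, the hepatic receptor of FGF15, at -0.39 (limma adjusted p = 0.261). Fgfr4 was the 1 regulator without overlap, with scaled read counts at 627, 525, 669 and 681 in Low AA mice H1126, H828, H817 and H1315 and at 696, 871, 971 and 761 in Control mice F129, F2212, F7111 and F2110. Of all genes, 6.81% were without overlap in either direction, so 1 of 18 regulators is near that share. Scaled read counts of Nr0b2 were 1247, 1143, 641 and 750 in Low AA mice H1126, H828, H817 and H1315. The Control mice F129, F2212, F7111 and F2110 had 1022, 429, 560 and 370. F129, which had the most Cyp7a1, had the most Nr0b2 of its diet. H817, with the most Cyp7a1 of the Low AA mice, had the least Nr0b2 of its diet. The relation between Nr0b2 and Cyp7a1 over the mice was not tested.

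Cyp7a1 follows the time of day, and its activator Dbp is a clock output, so a list of 18 clock gene symbols was examined, of which 16 were listed, Ciart was not, and Bmal1 is another symbol of the listed Arntl. Among them 0 were called, 8 were positive and 8 negative, and 0 were without overlap. The largest differences were in Bhlhe41 (log2 fold change -1.49, limma adjusted p = 0.241), Dbp (-1.11, limma adjusted p = 0.321) and Npas2 (0.80, limma adjusted p = 0.534). Dbp had scaled read counts at 184, 435, 454 and 656 in Low AA mice H1126, H828, H817 and H1315 and at 451, 1521, 1002 and 758 in Control mice F129, F2212, F7111 and F2110. The Control mouse with the most Cyp7a1, F129, had the least Dbp of its diet. The part of the clock in the spread of Cyp7a1 was not tested.

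Markers of other cells and of lobular position gave 0 calls in all 10 marker lists. Of 10 pericentral hepatocyte markers 9 had negative log2 fold changes, with a median of -0.13, and their summed level ran from 369295 to 541229 in Low AA mice and from 398613 to 541349 in Control mice. Of 10 periportal markers 5 were positive and 5 negative. Of 10 cholangiocyte markers 8 were listed, 6 of them negative, with summed levels of 4952 to 5801 and 4806 to 6230, and Krt7 and Cftr were not listed. Slc10a2 of that list, the transporter by which bile ducts take up bile acids, was named after its values were seen, with scaled read counts of 27 to 67 in Low AA mice and 82 to 98 in Control mice (log2 fold change -1.32, limma adjusted p = 0.0831). Stellate, endothelial and blood markers, whose medians were -0.16, 0.05 and -0.49, likewise overlapped in their summed levels, as did the 16 acute-phase genes with a median of -0.22. A sum follows its most abundant genes, and single markers besides Slc10a2 did not overlap. Periportal Cyp2f2, stellate Col1a1, blood Alas2 and acute-phase Orm1 and Saa1 were lower in Low AA mice, and acute-phase Cp was higher. These were named after their values were seen, and 6.81% of all genes did not overlap. The 7 pancreas markers had 1 listed, Cela1. The part of these cells in the levels of the enzymes was not tested.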

How the data were processed

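The deposited liver table covers 8 mice, 4 per diet, and each mouse is 1 replicate. The authors deposited, per gene and mouse, a signal: a read count multiplied by a factor and rounded. How the factor was set is not stated. Per the labels, the submitters' processing notes name bcl2fastq 1.8.2, STAR 2.5.0a, RSEM 1.2.6, edgeR 3.10.5, R 3.2.1 and build mm10, without roles. The table also holds the authors' own fold changes and FDR, which were not used. No gene in the table has a mean value near 0, and genes absent from it were not analysed here.

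Since the values are not raw counts, count models were not run. For each value v, log2(v + 1) was fitted by limma (3.58.1; R 4.3.3) using diet as the only term and a trend of variance on mean, two-sided, with Benjamini-Hochberg adjustment over 11784 genes. Each gene had to reach a value of 1 in 4 mice or more, and 0 failed. Ratios and correlations were tested with exact permutations, and the correlations were chosen after values had been seen. The labels pair no mice between diets. Positions and transcript lengths come from GENCODE M21 on GRCm38, promoter windows from RefSeq. Figures were drawn with matplotlib 3.10.9.

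The enzymes, lists and tests were chosen with earlier results of these data known. Named genes were the 9 enzymes, called genes and the 3 largest differences of each pathway list, and the 3 genes most like Cyp7a1 and Cyp8b1, with exceptions stated. Alternatives were pseudocounts of 0.1 and 5, no filter, the 8000 genes with the highest mean, 2 other scalings, no trend, robust moderation, and each mouse left out. All 8 columns of values were mapped to mice.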

Additional observations from a re-analysis of the deposited data

Results flagged for a closer look

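Among 54 groups of 4 mice examined, 5 held a mouse that lay far from the other 3 on the log2 scale, where chance gives about 1 in 20. The measure is the gap to the nearest mouse divided by the range of the group, with a critical value of 0.829. Control mouse F2110 was low for Cyp2c70 (0.844), the muricholic acid enzyme, and for Shmt2 (0.942). Control mouse F2212 was low for the oxysterol hydroxylase Cyp39a1 (0.838). Low AA mouse H828 was high for Csad (0.845), and Control mouse F129 stood apart for the clock gene Bhlhe41 (0.954). F129 also had the most Cyp7a1.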

How the results depend on the processing

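With 4 mice per diet, the interval of Cyp7a1 spans more than 2-fold in both directions. Pseudocounts, filters, scalings and moderation turned the sign of no enzyme. Under these and in each fit without 1 mouse, 0 enzymes were called. Cyp27a1 had limma adjusted p from 0.0681 to 0.265 over all alternatives. Genes called over the table were 47, against 19 among the 8000 highest-mean genes and 30 without a trend, and 16 (without H817) to 77 (without F2212) with a mouse left out. Cyp3a11 had a limma adjusted p of 0.0538 among the 8000 genes and of 0.0636 without a trend. The cause was not tested. Leaving out 1 mouse gave 1 to 2 enzymes without overlap, Hsd3b7 joining without H1315, Baat without F2212 and Cyp8b1 without F7111. Omitting a mouse can only add genes without overlap, and the share of all genes without overlap in these fits was not computed. Over the same fits log2 fold changes ran from -1.03 to 0.16 for Cyp7a1 and from -0.0907 to 0.29 for Cyp2c70, and stayed on one side of 0 for the other 7, from -0.54 to -0.20 for Cyp8b1, -0.60 to -0.49 for Cyp27a1, -0.33 to -0.17 for Hsd3b7, 0.18 to 0.57 for Akr1d1, 0.000304 to 0.15 for Amacr, -0.25 to -0.08 for Slc27a5 and -0.20 to -0.04 for Baat. Differences in log2 ratio ran from -0.36 to 0.49 for Cyp8b1 to Cyp7a1, -0.53 to 0.71 for Cyp7a1 to Cyp27a1, -0.0422 to 0.36 for Cyp8b1 to Cyp27a1, -0.71 to -0.15 for Cyp8b1 to Cyp2c70, -0.11 to 0.14 for Baat to Slc27a5 and -0.91 to 0.21 for Cyp7a1 to Baat. No paired analysis was possible because the mouse codes in the labels link no mouse of one diet to a mouse of the other. Count models were not run, as the values are not raw counts.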
